A study of Rattus norvegicus with 30 samples.

Results

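The report covers rat cochleae collected 3 days after an ototoxic sponge, from ears of rats that received resveratrol plus N-acetylcysteine (5 samples) and from ears of rats that did not (4 samples). These 9 samples were chosen by their labels from the 30 samples of the study. All rats were 2-month-old male Wistar rats. In both groups a gelatin sponge with kanamycin (200 mg/ml) and furosemide (50 mg/ml) had been placed near the round window on day 2 of the treatment, so collection fell on day 5 after the first dose. The antioxidant plus ototoxic ears (replicates 2 to 6) came from the arm of 20 rats given both antioxidants. The ototoxic ears (replicates 2 to 5) came from the arm of 16 rats, which per the labels' protocols received vehicle. The opposite ears, without a sponge, gave 6 antioxidant and 3 control samples on the same day. No group had a sponge without drugs, so the drugs and the surgery cannot be told apart. Nothing in the labels states whether ears were pooled, and p-values measure the spread between the samples as labelled.

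Kanamycin is an aminoglycoside antibiotic that damages the hair cells of the inner ear, and furosemide is a loop diuretic that acts on the stria vascularis and makes aminoglycoside damage worse. Reactive oxygen species are a known part of this damage. N-acetylcysteine supplies cysteine for the synthesis of glutathione, the main thiol antioxidant of cells, and resveratrol is a plant polyphenol with antioxidant activity. Cells remove superoxide with superoxide dismutases and remove the resulting peroxides with catalase, glutathione peroxidases and peroxiredoxins. The question of the comparison was whether the combination changed the expression of oxidative stress and antioxidant defence genes in ears exposed to the ototoxic drugs.

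Expression was read from a ready-made panel of real-time PCR assays. The threshold cycle (Ct) is the cycle at which an assay's signal crosses a set line, and 1 cycle less stands for about 1 log2 unit more template. The raw table held 84 assays with a ceiling of 40 cycles, and the deposited processed table held delta Ct values for 79 of them. The gene labels of both tables disagreed. Across assays, the rank correlation of raw Ct with delta Ct under the same label lay between -0.05 and 0.03 in the day 3 samples, and it lay between 0.991 and 1 once the raw assays were put in the order of their RefSeq accessions. Each assay is therefore called by its plate well, followed by its raw label and its processed label, and neither label is a settled gene. What is said of a labelled gene is background on that gene and not on the well. The cochlear origin of the samples could not be checked against marker genes for the same reason.

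Over the panel as a whole, ears with the antioxidants had a lower mean Ct a difference that was past 0.05 before adjustment and not after it. The panel was the 70 wells below 35 cycles in every day 3 sample, without the wells that have reference gene labels in the raw table. The mean raw Ct over these wells was 24, 23.90, 23.74, 24.33 and 23.95 cycles in antioxidant plus ototoxic replicates 2 to 6. It was 24.52, 23.96, 25.29 and 25.06 cycles in ototoxic replicates 2 to 5. Ototoxic replicate 3 lay among the antioxidant plus ototoxic samples, and the other 3 ototoxic samples lay above all of them. The means were 23.98 ± 0.22 cycles (SD, n = 5) and 24.71 ± 0.59 cycles (SD, n = 4), a difference of -0.73 cycles. An exact two-sided permutation test gave p = 0.0476, and 0.143 after Benjamini-Hochberg adjustment over 3 such tests. The test ran over all 126 splits of these samples into groups of 5 and 4. Ears without a sponge had 24.22 ± 0.32 cycles with the antioxidants (SD, n = 6) and 24.54 ± 0.33 cycles without (SD, n = 3), a difference of -0.32 cycles (exact permutation p = 0.238, adjusted 0.246). Without ototoxic replicate 3 the difference in sponge ears was -0.97 cycles (exact permutation p = 0.0179), and without any 1 of the other 8 samples the exact p was between 0.0536 and 0.0857. On the raw scale the amount of RNA in a reaction and the expression per cell cannot be told apart, nor can fewer cells of a type and less RNA per cell.

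**Figure D1:**
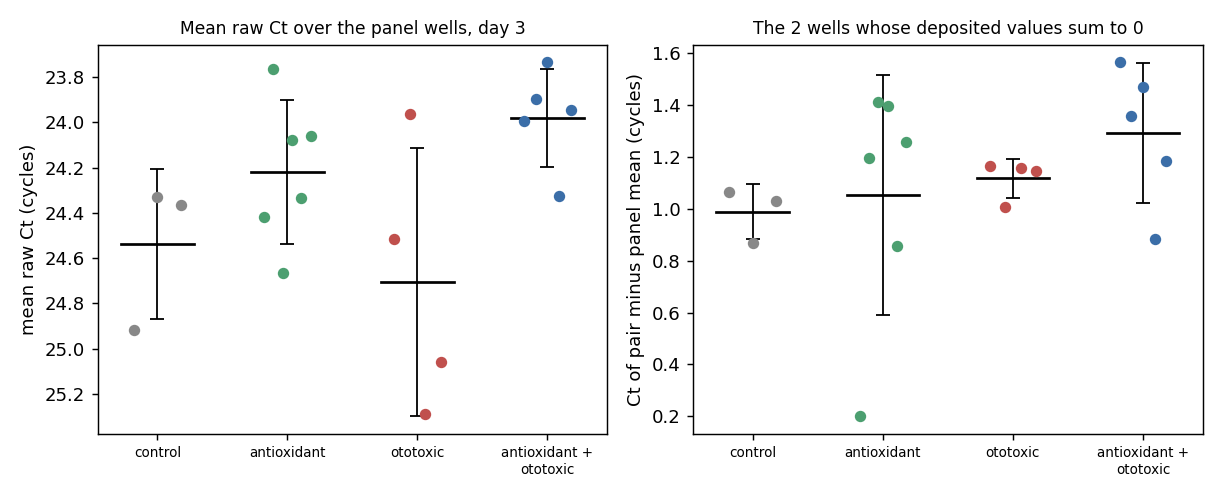
Mean raw Ct over the 70 panel wells (left, cycles, axis inverted so that more template is up) and the Ct of wells F02 and F06 minus that mean (right, cycles) for each day 3 sample; horizontal lines are group means and bars are SDs. The antioxidant plus ototoxic samples lie between 23.74 and 24.33 cycles on the left, and ototoxic samples between 23.96 and 25.29 cycles.

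Expression was taken as minus the Ct after subtraction of each sample's mean over the 70 wells, called the panel scale below. On the panel scale no well passed the test between antioxidant plus ototoxic and ototoxic ears. Of the 79 wells measured in at least 1 of both groups, 0 (0%) had a limma adjusted p below 0.05, and the smallest limma adjusted p was 0.464. An unadjusted limma p below 0.05 was found in 5 wells (6.33%), of which 2 were higher and 3 were lower with the antioxidants. Among the lower ones, E12 (Ptgs1, Nos2) counted as measured only through the ototoxic ears, as described below. Over all 79 wells, 30 were higher and 49 were lower, with a median difference of -0.13 log2 units. The 95% confidence interval of a well reached a median of 0.67 log2 units to each side of its difference. It reached 0.55 for the 41 wells with a mean below 25 cycles, 0.74 for the 32 wells between 25 and 30 cycles and 2.39 for the 6 wells above 30 cycles. These are medians over wells and not detection limits.

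On the deposited scale, which is minus the authors' delta Ct, 1 of 74 wells (1.35%) passed the test. That well was E01 (raw label Nxn, processed label Gpx3). Nxn encodes nucleoredoxin, an oxidoreductase of the thioredoxin family, and Gpx3 encodes the glutathione peroxidase secreted into plasma. Minus delta Ct of E01 was 0.93, 1.47, 0.91, 0.77 and 1.10 in antioxidant plus ototoxic replicates 2 to 6. It was 0.14, 0.32, 0.28 and 0.08 in ototoxic replicates 2 to 5. Every antioxidant plus ototoxic sample was above every ototoxic sample, and E01 was the only well (1.35%) higher without overlap on this scale. E01 was higher by 0.83 log2 units (SE 0.19, 95% confidence interval 0.43 to 1.24, limma adjusted p = 0.0338). Of 18 alternatives, 7 kept the call. Among them were an intensity trend (limma adjusted p = 0.0399), robust moderation (0.0339) and 3 other limits on Ct (0.0268 to 0.0413). The fit to all 30 samples in 8 groups kept it too (limma adjusted p = 0.00785). That fit also used samples collected later, whereas the match of rows to wells is given above for day 3 samples only. Its p is therefore not counted as added support for the call. The call was lost when the 2 compared groups were fitted alone (limma adjusted p = 0.136), with the replicate number as a block (0.0908), with a random block within each arm (0.0814), and without any 1 of 8 of the 9 samples. With each sample left out in turn the difference of E01 was 0.73 to 0.90, with a limma adjusted p of 0.0312 to 0.157, the lowest being without antioxidant plus ototoxic replicate 5.

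The same well was not called on the panel scale. Panel-scale values of E01 were -0.57, -0.05, -0.54, -0.08 and -0.14 in antioxidant plus ototoxic ears and -1.01, -0.37, -0.51 and -0.49 in ototoxic ears. The groups overlapped, since 2 antioxidant plus ototoxic samples lay below 3 of the ototoxic samples. The difference was 0.32 log2 units (SE 0.18, 95% confidence interval -0.06 to 0.71, limma adjusted p = 0.482), and 0.18 without ototoxic replicate 2. On the raw scale E01 read 24.56, 23.94, 24.27, 24.41 and 24.09 cycles in antioxidant plus ototoxic ears and 25.52, 24.34, 25.80 and 25.55 cycles in ototoxic ears. Minus raw Ct of E01 differed by 1.05 (limma adjusted p = 0.0615). In ears without a sponge, minus delta Ct of E01 was between 0.53 and 1.32 with the antioxidants and between 0.52 and 0.91 without, so the ototoxic ears were the lowest of the 4 groups on the deposited scale. The antioxidant difference of E01 did not pass the test against that in ears without a sponge, with a difference of differences of 0.55 on the deposited scale (95% confidence interval -0.05 to 1.14, limma adjusted p = 0.938) and 0.22 on the panel scale (-0.34 to 0.78, limma adjusted p = 0.951). That test treated opposite ears as independent.

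**Figure D2:**
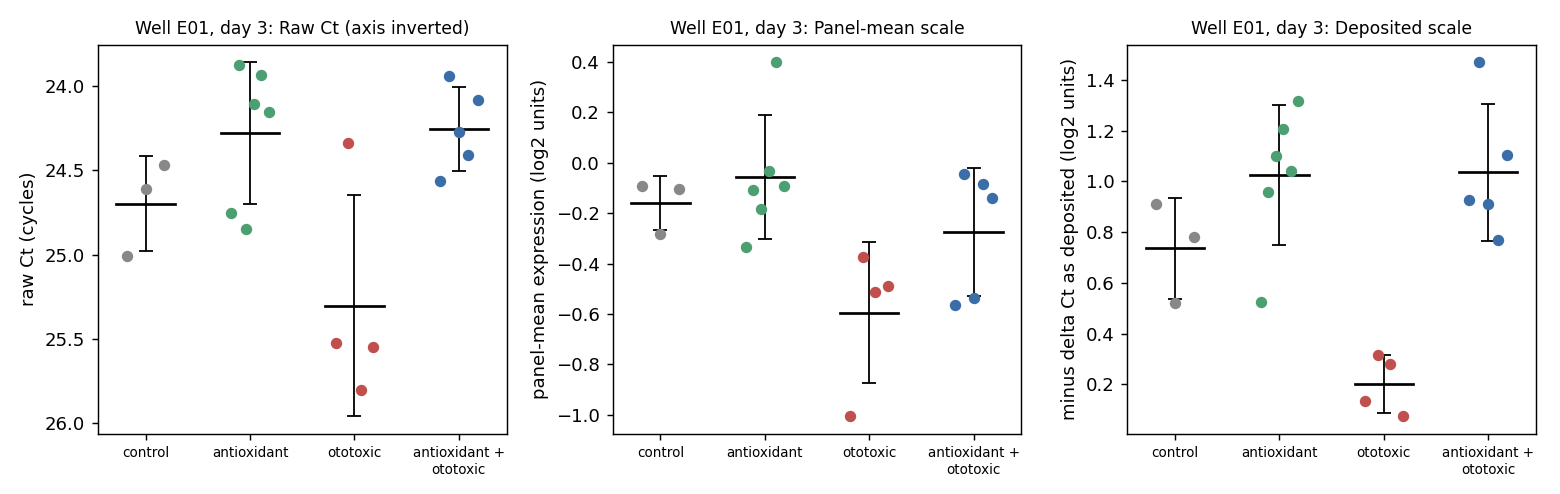
Well E01 (Nxn in the raw table, Gpx3 in the processed table) in each day 3 sample as raw Ct in cycles with an inverted axis (left), panel scale (middle) and deposited scale (right), both in log2 units; horizontal lines are group means and bars are SDs. The groups with a sponge are separate on the deposited scale (0.77 to 1.47 against 0.08 to 0.32) and overlap on the panel scale.

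Relative to a possible reference pair, the difference of E01 lay between those on the panel and deposited scales. Among 3081 pairs of assays, 1 pair had delta Ct values that summed to 0 in every sample (within 1e-06), wells F02 (Rag2, Xirp1) and F06 (Scd1, Txnrd2). Relative to the mean raw Ct of this pair, E01 differed by 0.49 log2 units (limma adjusted p = 0.605), which is 0.17 more than on the panel scale. The deposited value was another 0.34 higher than that, and what separates both values is not known here. With the deposited values centred on their own panel mean in each sample, E01 differed by 0.66 (limma adjusted p = 0.062). The pair itself crossed the threshold 1.29 ± 0.27 cycles after the panel mean in antioxidant plus ototoxic ears (SD, n = 5) and 1.12 ± 0.08 cycles after it in ototoxic ears (SD, n = 4), a difference of 0.17 cycles (exact permutation p = 0.246, adjusted 0.246). On the panel scale F02 differed by -0.14 and F06 by -0.21 log2 units.

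The choice of scale moved most wells in the same direction. The difference was larger on the deposited than on the panel scale in 62 of 74 wells, with a median shift of 0.20 and quartiles of 0.12 and 0.33 log2 units. The sign differed between both scales in 19 wells. On the deposited scale 46 wells were higher and 28 lower, with a median of 0.08, and on minus raw Ct 74 of 79 wells were higher, with a median of 0.59. An unadjusted limma p below 0.05 was found in 6 of 74 wells (8.11%) on the deposited scale and in 24 of 79 (30.4%) on minus raw Ct, where 0 wells had a limma adjusted p below 0.05. Groups did not overlap in 5 wells higher with the antioxidants on minus raw Ct (6.33%), against 0 higher and 1 lower (1.27%) on the panel scale.

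**Figure D3:**
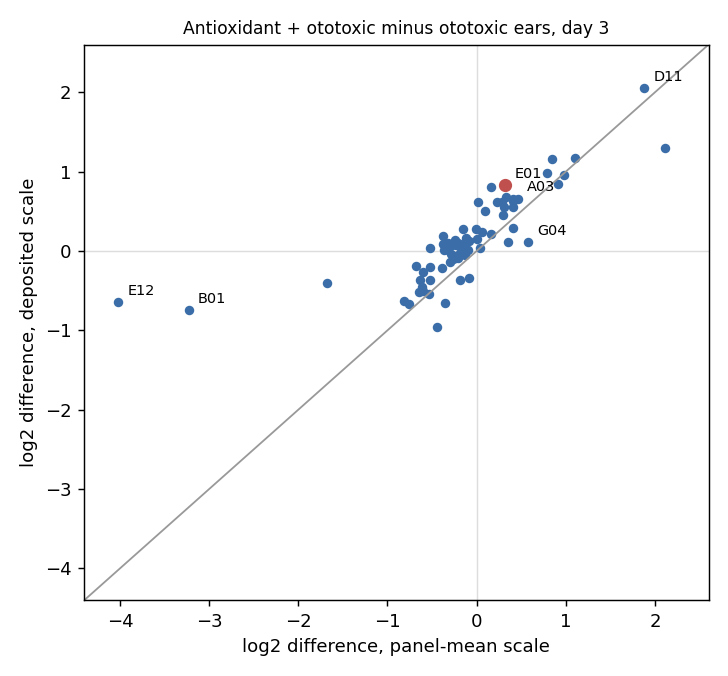
Difference between antioxidant plus ototoxic and ototoxic ears for each of the 74 wells on both tables, panel scale across and deposited scale up, in log2 units; the diagonal marks equal values and the red point is E01. Most points lie above the diagonal, by a median of 0.20, and wells E12 and B01 lie far from it.

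The wells with the smallest p on the panel scale are described next, none of which passed the test after adjustment. Well A03 (Apc, Gpx7) had the smallest. Apc encodes a tumour suppressor of the Wnt pathway, and Gpx7 a glutathione peroxidase of the endoplasmic reticulum. Panel-scale values of A03 were 3.33, 3.02, 3.01, 2.84 and 3.23 in antioxidant plus ototoxic ears and 2.97, 2.46, 2.47 and 2.58 in ototoxic ears. Ototoxic replicate 2 lay above antioxidant plus ototoxic replicate 5, and the other values were separate. The difference was 0.47 log2 units (SE 0.16, limma adjusted p = 0.464), and 0.66 on the deposited scale (limma adjusted p = 0.488). Without a sponge, A03 was between 3.17 and 3.81 with the antioxidants and between 3.01 and 3.17 without.

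Well D11 (Nudt1, Sod1) had the largest positive difference among the named wells. Nudt1 encodes an enzyme that removes oxidised nucleotides, and Sod1 the cytosolic superoxide dismutase. Panel-scale values of D11 were 1.36, -1.20, 0.08, -1.96 and -0.99 with the antioxidants and -1.81, -2.15, -3.21 and -2.51 without. Antioxidant plus ototoxic replicate 5 was the only 1 of its group below an ototoxic sample. The difference was 1.88 log2 units (SE 0.87, 95% confidence interval 0.03 to 3.73, limma adjusted p = 0.482).

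Well B03 (Ehd2, Apoe) was lower with the antioxidants on the panel scale and not on the raw scale. Ehd2 encodes a membrane-remodelling protein of caveolae, and Apoe the lipid carrier apolipoprotein E. Panel-scale values of B03 were -1.21, -0.30, -0.77, 0.04 and -0.41 with the antioxidants and 0.10, -0.16, 0.36 and -0.02 without. Antioxidant plus ototoxic replicate 5 lay among the ototoxic samples and the other 4 lay below them. The difference was -0.60 log2 units (SE 0.25, limma adjusted p = 0.482). It was -0.27 on the deposited scale, and minus raw Ct differed by 0.13 in the opposite direction.

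Wells A03, D11, E12, B03 and H04 were those with an unadjusted limma p below 0.05, and well H04 (Ldha, Ngb) was among the 3 lower ones. Ldha encodes lactate dehydrogenase A, often used as a reference gene, and Ngb the globin of nerve cells. Panel-scale values of H04 were -3.58, -2.51, -3.49, -2.68 and -3.28 with the antioxidants and -2.96, -2.15, -1.77 and -2.30 without. Ototoxic replicate 2 lay among the antioxidant plus ototoxic samples. The difference was -0.81 log2 units (SE 0.38, limma adjusted p = 0.482).

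Wells E12 (Ptgs1, Nos2) and B01 (Dnm2, Mpp4) had the largest differences and lay at the end of the assay's range. Both counted as measured only through the ototoxic ears, where every sample was below 35 cycles. That limit favours wells that are lower with the antioxidants, so the direction and p of these wells are no support for a lower level. Ptgs1 encodes a cyclooxygenase of prostaglandin synthesis, and Nos2 the inducible nitric oxide synthase. E12 read 40, 40, 33.64, 35.11 and 34.01 cycles in antioxidant plus ototoxic replicates 2 to 6 and 32.61, 33.88, 32.86 and 33.69 cycles in ototoxic ears. Both values of 40 cycles are the ceiling of the table, and of the other 3 values 1 lay within and 2 above the range of the ototoxic ears. The difference of E12 was -4.02 log2 units on the panel scale (SE 1.41, limma adjusted p = 0.464), -1.99 with values over 35 cycles set to 35, and -0.64 on the deposited scale. B01 read 40, 33.11, 34.63, 33.67 and 40 cycles with the antioxidants and 33.93, 32.95, 34.28 and 33.96 cycles without. Its difference was -3.23 on the panel scale, -1.23 with values over 35 cycles set to 35 and -0.75 on the deposited scale. Deposited values did not keep the order of the raw cycles here, since in antioxidant plus ototoxic replicate 3 E12 at 40 cycles had -5.57 and B01 at 33.11 cycles had -6.88.

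Some differences rested on 1 ototoxic sample. In well G09 (Ucp3, Mpo) panel-scale values were 0.30, 0.78, 0.91, 0.51 and 0.78 with the antioxidants and 0.80, 0.66, -1.48 and -0.50 without. Mpo encodes the myeloperoxidase of neutrophils, and Ucp3 a mitochondrial uncoupling protein of muscle. The difference of G09 was 0.79 log2 units and 0.33 without ototoxic replicate 4. In ears without a sponge G09 was between -1.63 and -0.33 with the antioxidants and between -1.86 and -1.35 without. Well E02 (Park7, Sod2) was the 1 well lower without overlap, at 0.21, -0.19, 0.13, 0.22 and 0.13 with the antioxidants and 0.25, 0.23, 1.53 and 0.49 without. Sod2 encodes the mitochondrial superoxide dismutase, and Park7 a redox-sensitive chaperone. The difference of E02 was -0.53 (limma adjusted p = 0.482) and -0.22 without ototoxic replicate 4. Well G04 (Tmod1, Mb) differed by 0.58 on the panel scale, by 0.33 without ototoxic replicate 4 and by 0.11 on the deposited scale.

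Of the 24 named wells, 10 were higher and 14 lower with the antioxidants on the panel scale. The wells labelled as glutathione peroxidases in the processed table included A03, E01, B05 (Ercc2, Gpx5; 0.40), B09 (Gab1, Gpx4; 0.29) and B04 (Epx, Gpx1; 0.84, and 0.52 without ototoxic replicate 2). Those labelled as glutathione peroxidases in the raw table included B10 (Gpx1, Prdx5; -0.61), B12 (Gpx3, Ppp1r15b; -0.38) and C04 (Gpx7, Fancc; -0.76). Only members among the named wells are given here, and others went the opposite way. Over all 8 wells of each reading, 5 were higher and 3 lower under the processed labels (median 0.30, range -0.65 to 0.84). Under the raw labels 3 were higher and 5 lower (median -0.32, range -0.76 to 2.11). The median over all wells was -0.13. None of either reading was called on the panel scale. On the deposited scale the medians were 0.63 and 0.04, beside 0.08 over all wells. The direction of this family on the panel scale thus depended on which table names the wells.

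The remaining named wells were below zero on the panel scale except B02 and H03. They were C05 (Gsr, Slc38a5) at -0.52, E10 (Prnp, LOC367198) at -0.64, H02 (Hprt1, Hbz) at -0.67, D01 (Mpo, Gab1) at -0.54, F11 (Slc41a3, Aqr) at -0.52 and G02 (Sod3, Lpo) at -0.39 log2 units. Gsr encodes glutathione reductase, which returns oxidised glutathione to its reduced form, and Sod3 the extracellular superoxide dismutase. E10 was -0.997 without ototoxic replicate 3 and -0.36 without ototoxic replicate 4. H03 (Rpl13a, Mss51) was at 0.29 and H05 (Actb, Prnp) at -0.08, both with reference gene labels in the raw table. H02 and H04 have such labels too. Of these 4 wells, 1 was higher and 3 were lower, with a median of -0.38 and a range of -0.81 to 0.29.

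**Figure D4:**
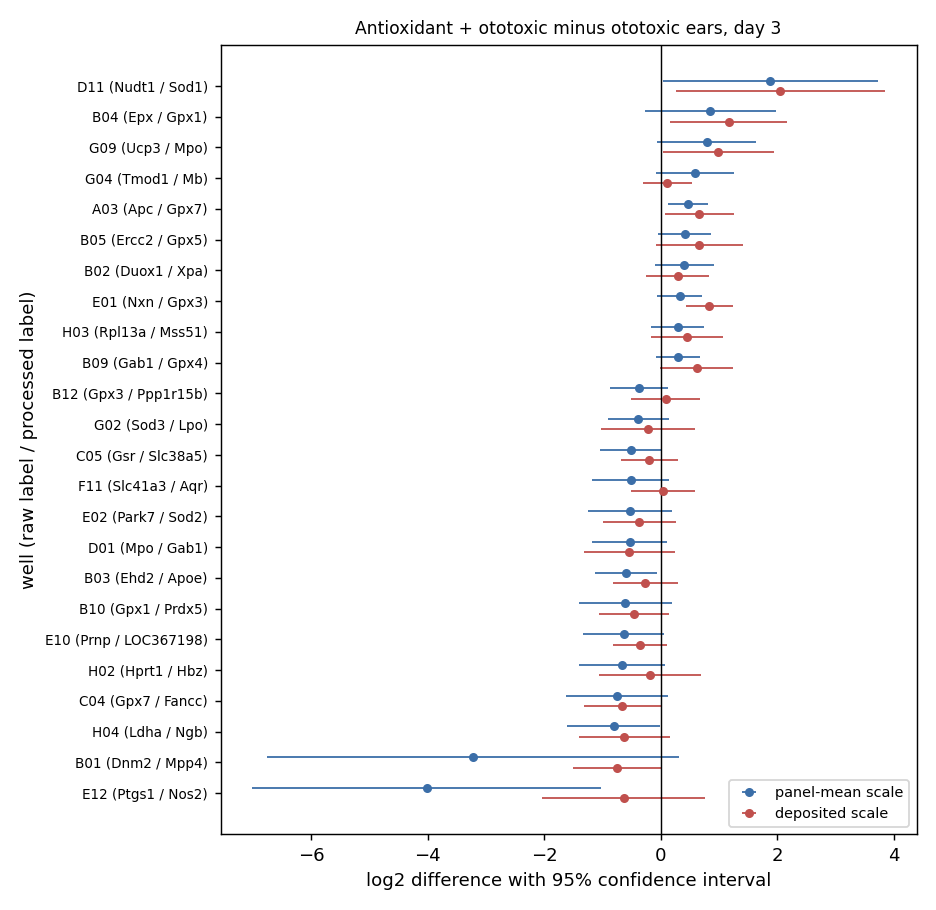
Difference between antioxidant plus ototoxic and ototoxic ears for the 24 named wells, in log2 units, on the panel scale (blue) and the deposited scale (red), with 95% confidence intervals. Wells E12 and B01 have the widest panel-scale intervals, and E01 has an interval above 0 on the deposited scale (0.43 to 1.24) and across 0 on the panel scale.

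The 12 gene lists, read once under each label set where both held members, gave 23 readings. On the panel scale 0 of the 23 held a called well, and on the deposited scale 2 did, both through E01. The 5 wells of superoxide dismutases and catalase under the processed labels had a median of 0.23 (4 higher, 1 lower), and the 4 measured under the raw labels had -0.20 (1 higher, 3 lower). Peroxiredoxin wells had medians of -0.13 under the processed labels (2 higher, 3 lower) and -0.20 under the raw labels (2 higher, 4 lower). The stress response wells had medians of -0.27 and -0.19, with 1 of 7 higher under each label set, and on the deposited scale both medians were above 0, at 0.08 and 0.07. Over all tested wells the median was -0.13 on the panel scale (30 higher, 49 lower) and 0.08 on the deposited scale (46 higher, 28 lower). The change of sign between scales was thus shared by the whole panel and is not a trait of this list. The sign of the median differed between label sets in 5 of the 11 lists that both held.

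The antioxidant difference was then set against that in ears without a sponge. On the panel scale 0 of 80 wells (0%) had a limma adjusted p below 0.05 between antioxidant and control ears, and 4 (5%) had an unadjusted limma p below 0.05, against 5 (6.25%) on minus raw Ct. On the deposited scale 1 of 75 (1.33%) was called, well B02 (Duox1, Xpa), by 1.25 log2 units (limma adjusted p = 0.0178). Duox1 encodes a dual oxidase that makes hydrogen peroxide, and Xpa a DNA damage recognition protein. In sponge ears B02 differed by 0.40 on the panel scale and 0.29 on the deposited scale, with panel-scale values of 1.94, 1.60, 2.04, 2.24 and 1.76 with the antioxidants and 1.91, 1.38, 1.46 and 1.29 without. The difference of differences of B02 was -0.59 on the panel scale (95% confidence interval -1.32 to 0.15, limma adjusted p = 0.951) and -0.97 on the deposited scale (-1.75 to -0.18, limma adjusted p = 0.757). The test of the difference itself called 0 of 81 wells by limma on the panel scale (0%), with 0 at an unadjusted p below 0.05, and 0 of 76 on the deposited scale, with 3 (3.95%) at an unadjusted p below 0.05. The 95% confidence interval of a difference of differences reached a median of 0.999 log2 units to each side. These intervals and p-values treated every ear as independent, although opposite ears of an arm can come from the same rat. With a random replicate block within each arm, 0 wells were called on the panel scale and the smallest limma adjusted p was 0.666.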

How the data were processed

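The deposited raw table holds threshold cycles and the deposited processed table holds delta Ct, both on a log2 scale per the file headers; the normalization is not given in the sources used here. Per the labels' protocols, RNA was amplified on a commercial 7900HT system with a ready-made panel. Processed values were joined to wells by the order of RefSeq accessions. 5 raw assays had no counterpart, and 2 raw columns matching no labelled sample were not used. 77 of 84 accessions were found in the GRCr8 gene table.

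limma 3.58.1 in R 4.3.3 fitted the 18 day 3 samples in 4 groups, with 14 residual degrees of freedom, and Benjamini-Hochberg adjustment at 0.05 was made within each comparison. A well was measured when below 35 cycles in every sample of at least 1 compared group. The fit was run on simulated data with planted changes larger than most differences reported here, independent noise and no ceiling. That run does not measure the power of these data for smaller changes. Wells named are those called on either scale and those with the smallest panel-scale p, up to 24, plus the possible reference pair and housekeeping wells. The members and gene lists were chosen with earlier results of these data known. PCR cycles carry no read depth. Precision varied with the Ct level of a well, as the confidence intervals above show, and also rests on the number of samples.

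Pairing of ears by replicate number was examined through deviations from group means. In the antioxidant arm, same-numbered antioxidant plus ototoxic and antioxidant ears correlated at 0.23 to 0.74 in 5 pairs. Differently numbered ears were not compared, so these correlations do not establish pairing. In the vehicle arm the 2 same-numbered pairs of ototoxic and control ears correlated at 0.28 and -0.35, which does not show pairing. Antioxidant plus ototoxic and ototoxic ears came from different rats, and their 4 same-numbered samples correlated at -0.50 to 0.40.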

Additional observations from a re-analysis of the deposited data

Results flagged for a closer look

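Over 72 groups of panel-scale values of the named wells, 3 held a sample far from the others by Dixon's test, and chance gives about 1 in 20 such groups. In well B01 (Dnm2, Mpp4), antioxidant replicate 2 had -16.23 with the nearest sample at -10.65, a gap of 0.759 of the group's range. That sample read 40 cycles, the ceiling, and its deposited value of -7.25 lay within its group. In well B12 (Gpx3, Ppp1r15b), ototoxic replicate 5 had -4.42 with the nearest at -5.07, a gap of 0.914 of the range. In well E02 (Park7, Sod2), antioxidant plus ototoxic replicate 3 had -0.19 with the nearest at 0.13, a gap of 0.769 of the range.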

How the results depend on the processing

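Between antioxidant plus ototoxic and ototoxic ears, 0 wells were called in 25 of 26 alternatives to the panel-scale fit, and 1 well on the deposited scale. Of these, the pair reference and the centring of deposited values on their own panel mean were chosen after seeing the data. The deposited-scale count of 1 was 0 with the compared groups alone, with the replicate number as a block, and with a random replicate block within each arm, and 0 to 1 with each sample left out. With the replicate number as a block the panel-scale count stayed at 0. Between antioxidant and control ears the count was 0, 1 on the deposited scale, and 0 to 1 with each sample left out. The difference in mean raw Ct (-0.73) was -0.63 over all wells and -0.73 by sample medians (exact permutation p = 0.0952 for each), -0.97 to -0.53 with each sample left out, and -0.72 within shared replicate numbers, as a block (exact p = 0.125, the smallest that 4 differences allow; all 4 were negative). Of 620 alternative values of single wells, 13 reversed: on the deposited scale F11 (0.040) and B12 (0.083), on the centred deposited scale G04 (-0.066), and on minus raw Ct B03 (0.13), C05 (0.21), E10 (0.087), H02 (0.052), D01 (0.19), F11 (0.21), B10 (0.12), B12 (0.35), E02 (0.20) and G02 (0.34). For these reversals the cause was not tested. A housekeeping reference in the processed table and a ceiling at 35 cycles for deposited values were not run.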
